A study of Mus musculus with 19 samples.

Results

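The 35 genes described here are markers of fibroblasts and pericytes and genes of the extracellular matrix, read in cultures that are labelled as microglia. They were chosen by gene symbol from the 16941 genes of the count tables. All 35 were found, and all 35 passed the filter on low counts that left 14113 genes for testing. They comprise 5 fibrillar collagen chains, 2 basement membrane collagen chains, 3 type VI collagen chains, 7 matrix glycoproteins, 3 small leucine-rich proteoglycans, 2 lysyl oxidases, 4 contractile genes, 5 receptors and surface or signalling markers, 2 intermediate filament proteins and 2 other secreted proteins.

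Microglia, the resident macrophages of the brain, were taken from the cortex of C57BL/6 mice of 10 to 11 months. The mice were wild type (WT) or carried APP, a human amyloid precursor protein transgene with the Swedish and Indiana mutations under the PDGF promoter (line hAPPJ20). All cells were kept for 4 weeks in DMEM/F12 with 10% serum and macrophage colony-stimulating factor at 5 ng/mL. They then received medium alone (vehicle) or bacterial lipopolysaccharide (LPS) at 100 ng/mL for 6 h and were left for another 16 h in fresh medium. There were 4 libraries of WT cells with vehicle, 5 of WT cells with LPS, 5 of APP cells with vehicle and 5 of APP cells with LPS. Nothing in the labels ties a library to an animal or a culture of its own, and the p-values below therefore reflect only how much these libraries varied, in part perhaps technically. They do give library numbers, and in 9 cases a vehicle and an LPS library of the same genotype carry consecutive numbers. What such libraries share is not given in the sources used here.

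Fibroblasts build the scaffold of connective tissue. They secrete fibrillar collagens, which lysyl oxidases cross-link, and the glycoproteins and proteoglycans that organise the fibres. Pericytes and smooth muscle cells wrap blood vessels, lay down basement membrane and carry the contractile proteins. In the brain these cells sit in the meninges and along vessels, and in culture they can turn into contractile, matrix-rich cells under transforming growth factor beta and serum. Several of the 35 genes are not exclusive to them: Vim, Fn1, Sparc and Thbs1 are known to be made by macrophages as well.

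The libraries held 13065257 to 31248988 counts, with a median of 21918747. Levels are shares of a library's counts, scaled to a common library total and written as CPM, with totals corrected for composition by edgeR's TMM method. The 3′ protocol reads each transcript near its end, so no length enters, and CPM values of different genes are set side by side only as shares of counts. Macrophage genes were abundant: the 26 macrophage and microglia markers summed to 15945 to 28355 CPM in 15 libraries, led by the lysozyme gene Lyz2. In the other 4 libraries, numbered 57 to 60 (in order, replicate 4 of WT vehicle and replicate 5 of WT LPS, of APP vehicle and of APP LPS), they summed to 4987 to 10137 CPM. The microglial markers P2ry12 and Tmem119 had means of 6.81 and 6.06 CPM and were at 0 in 6 and 3 libraries. Of 19 other pericyte and smooth muscle markers in the tables, 6 reached a mean of 10 CPM, led by Cald1 and Tpm1, while the pericyte channel gene Kcnj8 was at 0 in 17 libraries and the smooth muscle myosin gene Myh11 in 13. Of 29 other fibroblast genes 19 reached that level, led by Mgp and Fstl1. The treatment labels were checked with 21 LPS-response genes, which summed to 2258 to 9928 CPM in the vehicle libraries and 12105 to 18278 CPM in the LPS libraries.

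Matrix transcripts were a regular part of these cultures. A mean of at least 100 CPM over the 19 libraries was reached by 18 of the 35 genes, 11 lay between 10 and 100 CPM, and 6 were below 10 CPM (Col6a1, Lum, Col6a2, Cspg4, Col6a3 and Des). In every library 26 genes stood above 3 counts, the floor used here for detection (0.0962 to 0.249 CPM), and 9 were at 0 in at least 1 library. These floors cover counting error only. In bulk RNA, fewer cells of a type and less RNA per cell cannot be told apart.

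The fibrillar collagens are the load-bearing chains of connective tissue. Col3a1, the chain of type III collagen, had the highest mean of them (449 CPM). It stood at 313, 502, 229 and 299 CPM in WT vehicle, in replicate order here and below, and at 479, 217, 479, 293 and 314 CPM in WT LPS. In APP vehicle it was at 852, 565, 267, 291 and 962 CPM and in APP LPS at 726, 393, 198, 265 and 882 CPM. The 4 highest values all belonged to APP libraries, replicates 1 and 5 of both treatments, but the other APP libraries lay within or near the WT range. Col1a2, a chain of type I collagen, stood at 102, 262, 146 and 226 CPM in WT vehicle and at 87.6, 63.3, 212, 161 and 264 CPM in WT LPS. Its APP values were 351, 106, 57.7, 119 and 941 CPM with vehicle and 301, 61.5, 65.8, 82.8 and 1025 CPM with LPS. The 2 highest of these, 941 and 1025 CPM, came from libraries 59 and 60, and the other APP libraries ran from 57.7 to 351 CPM, around the WT range. Col5a1, a type V chain that helps start fibrils, showed 47.3, 37.1, 19.9 and 28.6 CPM in WT vehicle, 20.2, 20.02, 48.8, 30.3 and 47.4 CPM in WT LPS, 89.8, 34.3, 30.4, 28.8 and 80.1 CPM in APP vehicle and 45.8, 37.2, 11.2, 29.7 and 71.2 CPM in APP LPS. Again the groups overlapped widely. Col1a1, the partner of Col1a2, ranged from 74.4 to 649 CPM, and Col5a2 from 88.8 to 556 CPM.

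Basement membranes are sheets of type IV collagen under epithelia and around vessels. Col4a1 stood at 152, 522, 179 and 398 CPM in WT vehicle, 193, 145, 416, 198 and 363 CPM in WT LPS, 459, 242, 116, 233 and 474 CPM in APP vehicle and 258, 194, 106, 286 and 484 CPM in APP LPS. Every group held high and low libraries, and the ranges overlapped. Its partner Col4a2 ranged from 29.1 to 173 CPM. Both genes lie head to head on chromosome 8 (GRCm38, Col4a1 at 11198423 to 11312826 on the minus strand, Col4a2 at 11312805 to 11449287 on the plus strand) and overlap at their starts. Type VI collagen, a beaded filament of many tissues, was low in these cultures. Col6a1 was at 0, 7.72, 0.503 and 12.6 CPM in WT vehicle, 4.65, 5.13, 7.73, 5.17 and 7.35 CPM in WT LPS, 9.79, 15.6, 8.61, 1.39 and 15.8 CPM in APP vehicle and 13.5, 1.97, 1.94, 3.99 and 18.7 CPM in APP LPS. Col6a3 was at 0, 2.13, 0 and 0 CPM in WT vehicle, 0, 0, 1.296, 1.87 and 4.06 CPM in WT LPS, 1.56, 2.24, 0, 0 and 21.0 CPM in APP vehicle and 5.01, 0, 0.182, 1.99 and 16.6 CPM in APP LPS. Its 2 highest values came from APP replicate 5 of both treatments, every other library was at 5.01 CPM or less, and the groups overlapped. Col6a2 was at 0 in 5 libraries and reached 20.03 CPM.

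Among the matrix glycoproteins, Sparc, a collagen-binding protein of remodelling tissue, was highest. Its levels were 745, 2588, 458 and 1125 CPM in WT vehicle, 836, 487, 2074, 499.9 and 1815 CPM in WT LPS, 2442, 1146, 382, 607 and 1739.8 CPM in APP vehicle and 1809, 1026, 302, 556 and 2177 CPM in APP LPS. The range from lowest to highest was 8.57-fold, and each group spanned most of it. Postn encodes periostin, a matrix protein of activated fibroblasts. It was at 12.1, 31.8, 14.6 and 5.73 CPM in WT vehicle and at 6.42, 7.01, 10.7, 4.59 and 6.41 CPM in WT LPS. In APP vehicle it was at 56.3, 20.3, 12.9, 5.94 and 47.7 CPM, and in APP LPS at 33.3, 8.91, 25.01, 6.73 and 58.7 CPM. The WT LPS libraries were all low, while each other group mixed low and high ones. Fn1 (fibronectin, 233 to 1722 CPM), Tnc (tenascin C, 96.8 to 502 CPM), Thbs1 (thrombospondin 1, 134 to 376 CPM) and Fbln2 (fibulin 2, 57.2 to 224 CPM) were present in every library. Fbn1, the fibrillin of microfibrils, ranged from 1.39 to 118 CPM.

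Dcn encodes decorin, a proteoglycan that coats collagen fibrils and binds transforming growth factor beta. It stood at 1043, 1179, 902 and 873 CPM in WT vehicle and at 1240.5, 1182, 1876, 1006 and 1477 CPM in WT LPS. The APP values were 1545, 725, 555, 1079 and 1422 CPM with vehicle and 1985, 949, 688, 1315 and 2461 CPM with LPS. Values with LPS reached higher in both genotypes, but the ranges of the treatments overlapped. Bgn (biglycan) ranged from 44.6 to 356 CPM and Lum (lumican) from 0 to 23.9 CPM. Lox, the enzyme that cross-links collagen and elastin, was at 245, 475, 306 and 744 CPM in WT vehicle, 395, 416, 555, 402 and 1171 CPM in WT LPS, 824, 419.9, 402, 555 and 878 CPM in APP vehicle and 935, 439, 626, 720.3 and 1086 CPM in APP LPS. Libraries 57 to 60 were each the highest of their group for Lox, and the 4 ranges overlapped. Its relative Loxl1 ranged from 0.243 to 56.0 CPM.

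The contractile genes encode smooth muscle actin (Acta2), transgelin (Tagln), a myosin light chain (Myl9) and calponin (Cnn1), and serum response factor is known to act on them through the CArG box, a short motif rich in A and T. The 250 bases before the RefSeq start (GRCm38.p6) are shown for Acta2 (chr19:34255374-34255623, minus strand), Myl9 (chr2:156775214-156775463, plus strand) and Cnn1 (chr9:22099003-22099252, plus strand) as the contractile genes of the 35 that have an entry in that table. Each is written 5′ to 3′ on the strand of its gene, and capitals mark CArG boxes found with at most 1 mismatch in the A and T core on either strand.
Acta2: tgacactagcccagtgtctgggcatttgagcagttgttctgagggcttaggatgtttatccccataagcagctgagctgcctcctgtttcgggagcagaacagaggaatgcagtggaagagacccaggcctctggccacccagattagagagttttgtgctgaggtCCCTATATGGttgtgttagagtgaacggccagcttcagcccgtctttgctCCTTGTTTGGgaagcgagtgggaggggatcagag
Myl9: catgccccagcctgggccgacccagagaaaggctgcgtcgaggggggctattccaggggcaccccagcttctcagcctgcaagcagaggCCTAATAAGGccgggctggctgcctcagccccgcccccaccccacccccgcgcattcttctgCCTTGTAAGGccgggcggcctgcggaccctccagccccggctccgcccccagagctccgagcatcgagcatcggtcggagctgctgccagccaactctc
Cnn1: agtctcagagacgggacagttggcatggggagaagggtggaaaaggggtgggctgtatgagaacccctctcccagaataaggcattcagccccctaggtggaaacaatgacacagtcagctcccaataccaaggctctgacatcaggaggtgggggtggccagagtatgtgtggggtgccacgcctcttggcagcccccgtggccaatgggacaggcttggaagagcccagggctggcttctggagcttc
Acta2 had 2 such matches, at -84 to -75 and -34 to -25 from its start. Myl9 had 2 as well, at -161 to -152 (an exact match) and -99 to -90, and Cnn1 had none in this window. Of the 35 genes 24 were matched to a RefSeq promoter, and 5 of these 24 held a match to the motif (Acta2, Myl9, Col6a3, Col1a2 and Fbln2). The 11 unmatched genes were Thy1, Col5a2, Dcn, Pdgfrb, Col1a1, Lox, Lum, Fn1, Tagln, Loxl1 and Thbs1. Over all 32851 promoters 8.59% held a match with at most 1 mismatch and 1.47% an exact one. The matches describe the letters and do not show binding.

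Tagln stood at 178, 296, 191 and 623 CPM in WT vehicle and at 67.6, 106, 216, 117 and 469 CPM in WT LPS. In APP vehicle it was at 364, 154, 186, 284 and 478 CPM, and in APP LPS at 246, 90.1, 124, 227 and 327 CPM. The lowest values of both genotypes were LPS libraries, and the ranges of the treatments overlapped. Acta2 was at 76.0, 155, 48.7 and 336 CPM in WT vehicle, 19.1, 43.9, 63.4, 86.5 and 141 CPM in WT LPS, 352, 218, 65.6, 150.0 and 249 CPM in APP vehicle and 109, 114, 47.5, 99.6 and 159 CPM in APP LPS. No LPS library of either genotype exceeded 159 CPM, which 4 of the 9 vehicle libraries did. Cnn1 was at 12.4, 28.9, 1.23 and 10.4 CPM in WT vehicle, 4.89, 5.29, 11.4, 13.1 and 6.98 CPM in WT LPS, 48.1, 17.7, 9.11, 6.83 and 2.66 CPM in APP vehicle and 13.9, 0, 0, 2.08 and 0.736 CPM in APP LPS. In APP LPS 4 of 5 libraries were at 2.08 CPM or less, as was 1 library of the other groups (WT vehicle 3), so the ranges overlapped. Myl9 ranged from 0 to 67.0 CPM.

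Receptors and signalling markers were low but, for the most part, measurable. Rgs5, a regulator of G protein signalling that marks brain pericytes, was at 5.68, 148, 9.83 and 34.8 CPM in WT vehicle, 24.2, 11.1, 116, 19.7 and 19.3 CPM in WT LPS, 110.1, 18.1, 14.7, 31.5 and 21.4 CPM in APP vehicle and 131, 4.74, 19.4, 13.7 and 13.9 CPM in APP LPS. Only 4 libraries exceeded 100 CPM, and they carry the numbers 3, 4, 21 and 22. The PDGF receptors Pdgfra (fibroblasts and oligodendrocyte precursors) and Pdgfrb (pericytes) ranged from 8.00 to 91.1 CPM and from 1.88 to 69.9 CPM. Cspg4, the NG2 proteoglycan, was at 0 in 6 libraries and reached 19.6 CPM, and Thy1 ranged from 0 to 37.9 CPM.

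Vim, the intermediate filament protein of mesenchymal cells, was at 744, 1258, 649 and 553 CPM in WT vehicle, 789.9, 631, 940.3, 575 and 543 CPM in WT LPS, 1643, 1087, 707, 443 and 767 CPM in APP vehicle and 1103, 954, 613, 386 and 687 CPM in APP LPS. Library 3 (APP vehicle 1) was highest and libraries 51 and 52 lowest. Des, the muscle filament desmin, was at 0, 0, 0 and 2.14 CPM in WT vehicle, 0, 2.83, 1.55, 0 and 1.59 CPM in WT LPS, 1.81, 1.997, 0, 2.83 and 0 CPM in APP vehicle and 0, 0, 0, 0.166 and 0 CPM in APP LPS. It was thus at 0 in 11 libraries, at least 1 of them in every group. Igfbp7, a secreted binding protein of vessels and fibroblasts, was at 559.7, 2298, 631 and 1407 CPM in WT vehicle, 649, 525, 1812, 785 and 1187 CPM in WT LPS, 1309, 1373, 384, 1445 and 1763 CPM in APP vehicle and 1231, 1369.6, 427, 1435 and 1940.4 CPM in APP LPS. Its groups spanned nearly the same range.

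Lrrc17, a secreted leucine-rich repeat protein, stood far above the rest. It was at 35669.9, 35309.6, 30946 and 38414 CPM in WT vehicle, 51266, 31802, 45143, 29772 and 44163 CPM in WT LPS, 21307, 44698, 51169.7, 52614 and 37116 CPM in APP vehicle and 25823, 31849, 45350.4, 77878 and 33702 CPM in APP LPS. It held 59.6% to 92.1% of the summed level of the 35 genes, so that sum is mostly Lrrc17. A transcript of Lrrc17 (2154 bases, GENCODE M21) carries an 82-base stretch, at bases 1702 to 1783 and ending 371 bases before its 3′ end, whose 52 words of 31 bases also occur in Bc1, a short RNA of 168 bases. Lrrc17 (GRCm38 chromosome 5, 21543559 to 21575904, plus strand) also lies within Fbxl13 on the opposite strand. Neither Bc1 nor Fbxl13 has an entry of its own in the count tables. How many counts of Lrrc17 came from reads of these genes was not tested. Of all 31-base words of Lrrc17, 1.45% were shared with another gene. For the other genes of the 35 this share was at most 1.87% (Fn1), so by this count Lrrc17 did not stand apart from them.

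The sum of the 34 genes without Lrrc17 ranged from 4242 CPM in APP LPS 3 to 15897 CPM in APP LPS 5, 3.75-fold apart. The sum of C1qa, C1qb and C1qc, the chains of the complement protein C1q that microglia make, was set beside it as a measure of macrophage content. C1q was at 610, 392, 456 and 240 CPM in libraries 57, 58, 59 and 60 and at 1168 to 2644 CPM in the other 15. The 34 genes summed to 9115, 11396, 13876 and 15897 CPM in the same 4 libraries. The libraries poorest in C1q thus held high levels of the 34 genes, but library 3 (14422 CPM), library 21 (12675 CPM), library 4 (11693 CPM) and library 22 (11635 CPM) were in the same range with C1q at 1548, 2119.6, 1168 and 1444 CPM. Because libraries 57 to 60 form a group of their own in C1q, no correlation was taken over all 19.

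**Figure D1:**
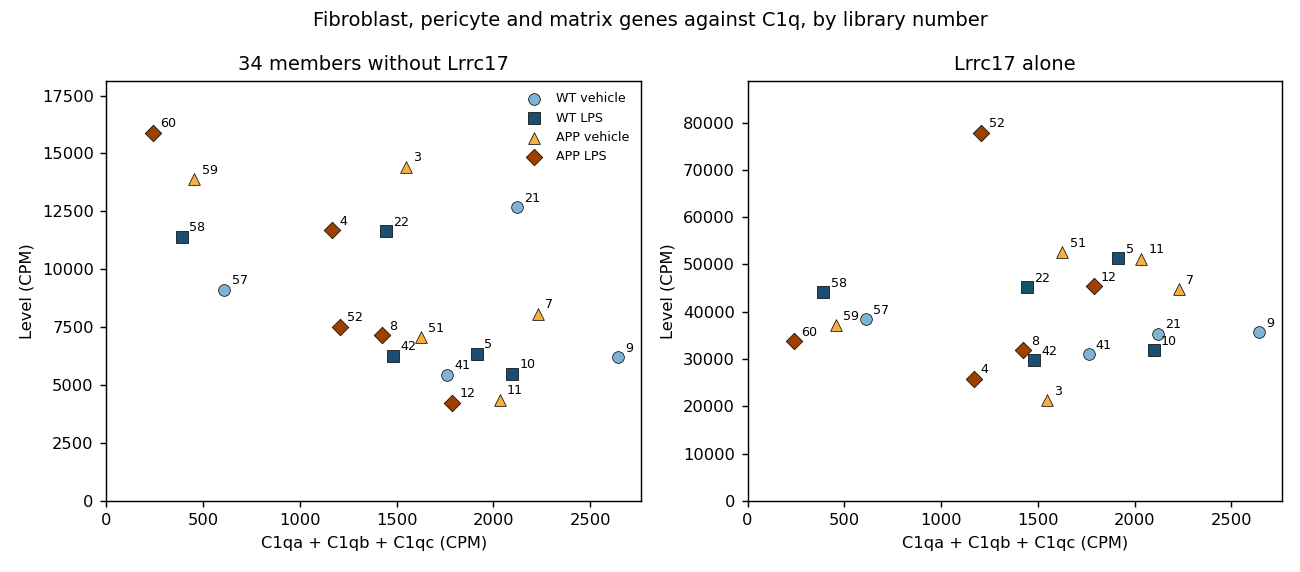
Summed CPM of C1qa, C1qb and C1qc (x axis) against the summed CPM of the 34 genes without Lrrc17 (left) and the CPM of Lrrc17 alone (right), 1 point per library with its library number, symbols by group. Libraries 57 to 60 lie at 240 to 610 CPM of C1q and 9115 to 15897 CPM of the 34 genes, while the other 15 spread from 4242 to 14422 CPM.

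Within the other 15 libraries the sum of all 35 genes and C1q had a Pearson r of -0.17 and a Spearman rho of 0.03. For the 34 genes the values were -0.31 and -0.33, and without the 2 libraries farthest from the median of C1q (APP LPS 1 and WT vehicle 1) they were -0.16 and -0.17 over 13 libraries. These are descriptions: consecutive libraries may share a source, and all CPM values of a library share its total. They also pool vehicle and LPS libraries, although C1q was lower with LPS in 9 of 9 cases of consecutive numbers. Treatment and macrophage content are therefore not separated in C1q. The macrophage markers without C1q had r -0.62 and rho -0.71 with the 34-gene sum over the 15 libraries. Other fibroblast genes had r 0.95 and rho 0.93 with it, pericyte and smooth muscle markers 0.94 and 0.93, and meningeal and perivascular fibroblast markers 0.69 and 0.60. Markers of endothelium had r -0.51 and rho -0.72, of astrocytes 0.66 and 0.36, of the oligodendrocyte lineage 0.78 and 0.39, and of neurons 0.60 and 0.19. The leading gene weighed heavily in the sums of meningeal, endothelial and astrocyte markers. Spp1 had a mean of 1984.6 CPM (next Foxd1, 62.8), Pecam1 of 476 CPM (next Emcn, 20.04) and Glul of 235 CPM (next Gja1, 44.2). Taken gene by gene, the median rho was 0.48 for meningeal markers, -0.05 for endothelium and 0.41 for astrocytes. The part of any of these cell types in the level of the 34 genes was not tested.

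Gene by gene, 27 of the 35 (77.1%) had a rho above 0.5 with the sum of the others of the 34, against 10.2% of the other tested genes. Col4a1 (0.95), Bgn (0.93), Sparc (0.89) and Fn1 (0.87) followed the sum most closely. The lowest values were those of Lrrc17 (-0.25), Tnc (-0.10) and Cspg4 (0.07). With C1q, 23 of the 35 genes (65.7%) had a rho below 0, against 50.5% of the other tested genes. Lox (-0.60), Dcn (-0.47) and Fn1 (-0.43) had the lowest values with C1q, and Lum (0.33) the highest.

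The genes also followed each other. Among the 28 with a mean of at least 10 CPM, Lrrc17 left out, the 378 gene pairs had a median rho of 0.54 over the 19 libraries, and 97.1% were above 0, against 50.01% of the pairs of other genes at that level. The highest were Sparc with Bgn (0.94), Col5a2 with Sparc (0.91) and Col4a1 with Fn1 (0.91). These pairs cross the lines between proteoglycans, glycoproteins and collagens. Tnc, Thbs1 and Thy1 had the lowest median with the others, each 0.25, and Lrrc17 had -0.28.

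**Figure D2:**
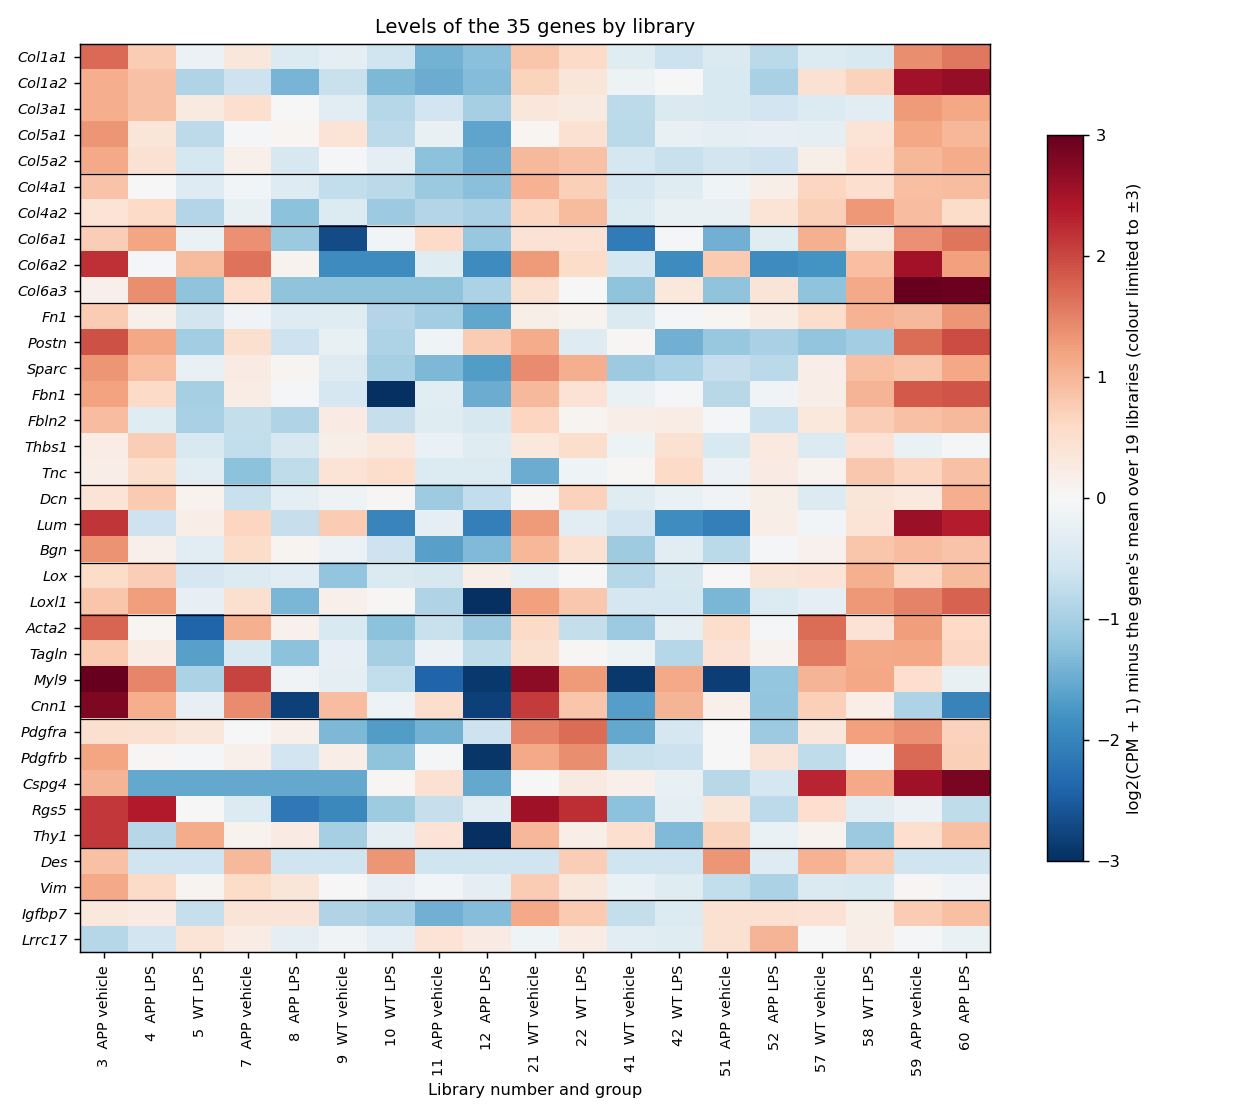
Level of each of the 35 genes (rows, grouped by role) in the 19 libraries (columns, in order of library number), as log2(CPM + 1) minus the mean of the gene, with colour limited to 3 in either direction. Libraries 3, 4, 21, 22, 59 and 60 are above the mean for most collagens and glycoproteins, and libraries 10, 11 and 12 below it, whatever the treatment.

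High and low libraries came in consecutive numbers. The 34-gene sums were 14422 and 11693 CPM in libraries 3 and 4, 8076 and 7163 in 7 and 8, 6198 and 5495 in 9 and 10, and 4371 and 4242 in 11 and 12. They were 12675 and 11635 CPM in libraries 21 and 22, 5437 and 6268 in 41 and 42, 7074 and 7517 in 51 and 52, 9115 and 11396 in 57 and 58, and 13876 and 15897 in 59 and 60. The first of each was treated with vehicle and the second with LPS. In this sum, vehicle and LPS libraries with consecutive numbers thus differed by 1.03-fold to 1.25-fold, with LPS higher in 4 of 9 cases. C1q was lower with LPS in 9 of 9. With each of the 34 genes weighted equally, the mean log2 difference ran from -1.20 (libraries 11 and 12) to 0.46 (57 and 58). Genes at or near 0 counts weigh heavily in these means, and their differences depend on the prior count. Thy1 had -6.90 and Cnn1 -6.65 in libraries 11 and 12, with 0 counts each in library 12. Col6a3 had 5.50 and Col6a2 5.35 in libraries 57 and 58, with 0 and 1 counts in library 57. For 28 of the 29 genes with a mean of at least 10 CPM, the median difference within consecutive numbers was smaller than that between libraries of a group, as it was for 71.9% of the 8239 tested genes at that level. The typical sizes were 0.41 and 0.99 (log2) for the 29 genes, and 0.41 and 0.54 for all. Cnn1 was the exception.

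The first comparison asked what LPS left behind in WT cultures after recovery. None of the 35 genes was called at an adjusted p under 0.05 (edgeR quasi-likelihood test, Benjamini-Hochberg over 14113 genes), where 0.0% of all genes were called. At an unadjusted p under 0.05 there was 1 gene, Acta2, against 3.66% of all genes. Acta2 had a log2 change of -1.12 ± 0.54 (SE, unadjusted p = 0.0483, edgeR adjusted p = 1). Postn had -1.19 ± 0.64 and Tagln -0.72 ± 0.50, with edgeR adjusted p of 1 for each. Without WT vehicle 4 Acta2 had -0.38 and Tagln -0.16, without WT LPS 5 Tagln had -1.35, and without WT vehicle 2 Postn had -0.62. The contractile genes were all below 0 (4 of 4, median -0.69), and the fibrillar collagens had a median of -0.14 with 2 of 5 above 0. Over the 35 genes the median was -0.11, with 15 above 0, and over all genes it was -0.01, with 49.3% above 0. Its sign rested on single libraries: the median was 0.20 with 27 above 0 without WT vehicle 2, 0.09 without WT LPS 2, 0.03 without WT LPS 4 and -0.35 with 11 above 0 without WT LPS 3. None of the 35 had WT LPS and WT vehicle ranges that did not overlap, against 0.723% of genes higher and 0.581% lower with LPS. DESeq2 called 0 of the 35 too, and 89 genes (0.631%) in all.

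In APP cultures the same question again gave 0 of 35 genes at an adjusted p under 0.05 in the group comparison (edgeR, 0.0% of all genes) and 0 of 35 at an unadjusted p under 0.05 (4.81% of all genes). DESeq2 called 0 of the 35, and 0.539% of all genes. All 4 contractile genes and all 5 fibrillar collagens were below 0, with medians of -1.32 and -0.29, and 7 of the 35 genes were above 0 (median -0.25, against -0.03 and 46.9% above 0 over all genes). Leaving out 1 library left 5 to 17 above 0, with medians from -0.73 (without APP LPS 5) to -0.0031 (without APP vehicle 5). It left 14 without APP vehicle 1 or APP LPS 2 and 16 without APP LPS 3. Cnn1 had a log2 change of -2.33 ± 1.18 and Acta2 of -0.97 ± 0.51, with edgeR adjusted p of 1. Leaving out 1 library moved Cnn1 to between -4.62 (without APP LPS 1) and -1.43 (without APP vehicle 1). Des was at 0 in 4 of 5 APP LPS libraries, with 2 counts in the other, so its fitted change of -5.22 ± 2.67 depends on the prior count and is no bound. Ranges that did not overlap were found for 0 of the 35, against 0.255% of genes higher and 0.333% lower.

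**Figure D3:**
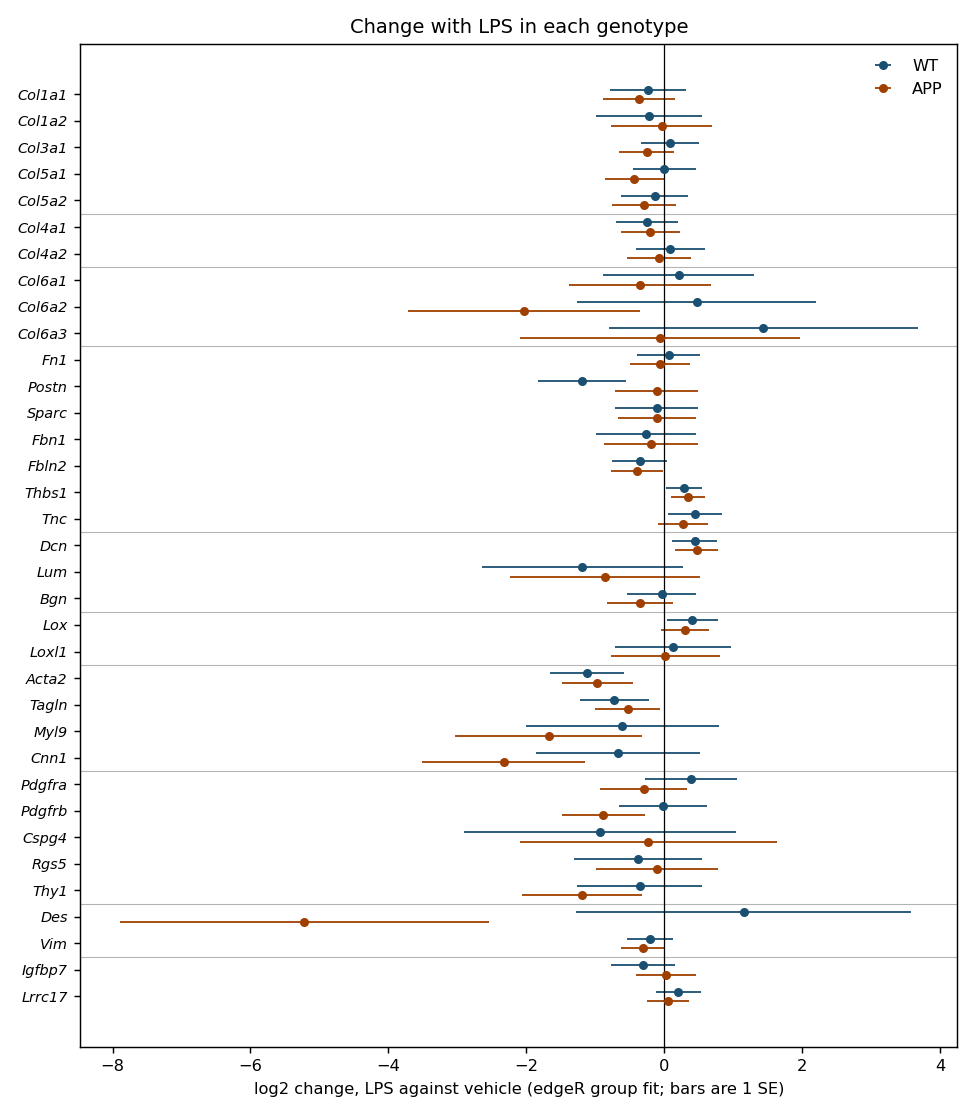
Log2 change with LPS against vehicle for each of the 35 genes in WT (blue) and APP (brown), from the edgeR group comparison, with bars of 1 SE. The 4 contractile genes lie below 0 in both genotypes and Dcn, Lox, Thbs1 and Tnc above it, with bars that are wide for the genes of low level such as Des and Col6a3.

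APP vehicle and APP LPS libraries of the same replicate number carry consecutive library numbers. Over all tested genes they deviated together from their group means, so they were also compared as 5 pairs. Over the 35 genes alone, the correlation of these deviations was 0.41, 0.21, 0.19, 0.02 and 0.78 in replicate order. Dcn and Lox were higher with LPS in 5 of 5 pairs, as were 3.45% of all genes. Acta2, Cnn1, Col3a1, Col6a2, Tagln and Vim were lower in 5 of 5, as were 4.99% of all genes. With the pair as a block in the fit over all libraries, 1 of the 35 genes passed: Tagln fell by 0.56 ± 0.12 on the log2 scale (edgeR adjusted p = 0.0334; 0.588% of all genes were called). In a fit of the 10 APP libraries alone the change of Tagln was the same, -0.56 ± 0.12, with an edgeR adjusted p of 0.0706, and 0 of the 35 genes were called, against 0.446% of all genes. Acta2 had -0.86 ± 0.18 there (edgeR adjusted p = 0.0518) and Dcn 0.43 ± 0.11 (edgeR adjusted p = 0.160). At an unadjusted p under 0.05, 12 of the 35 genes stood in that fit, against 6.58% of all genes. In the same fit 15 of 21 LPS-response genes rose, and among the macrophage markers, for example, Cd14 rose while C1qc, Mrc1 and Trem2 fell. C1qc, for example, fell by 0.66 ± 0.12 (edgeR adjusted p = 0.0317). The part of the fall of macrophage genes in the levels of the 35 was not tested.

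**Figure D4:**
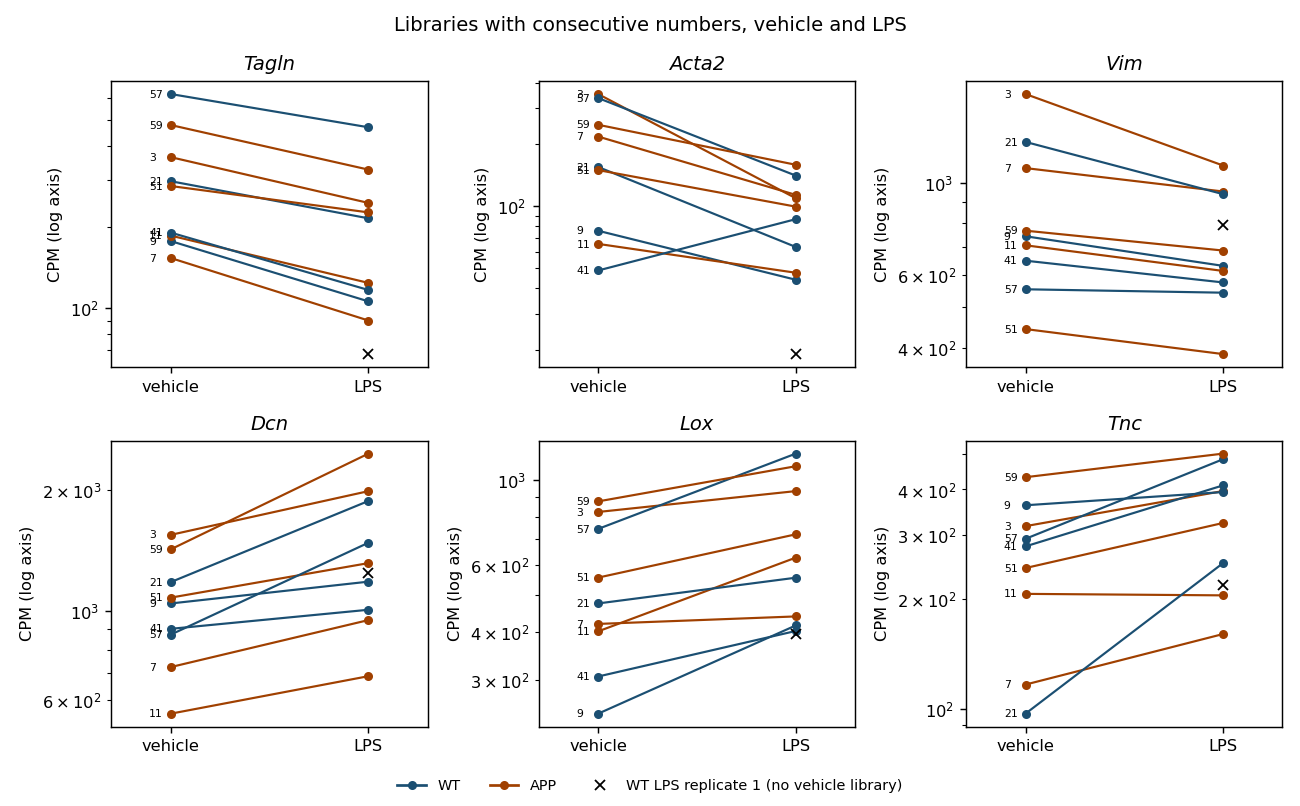
CPM (log axes) of Tagln, Acta2, Vim, Dcn, Lox and Tnc in vehicle and LPS libraries, with lines joining libraries of consecutive numbers (blue WT, brown APP, number at the left end) and a cross for WT LPS replicate 1, which has no vehicle library beside it. All 9 lines fall for Tagln and Vim and rise for Dcn and Lox, while library 42 lies above 41 for Acta2 and library 12 slightly below 11 for Tnc.

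Taking all 9 consecutive numbers, Dcn and Lox were higher and Tagln and Vim lower with LPS in 9 of 9, as were 0.935% and 1.06% of all genes in the respective direction. For Tagln the log2 differences ran from -0.77 to -0.32, for Vim from -0.58 to -0.03, for Dcn from 0.16 to 0.79 and for Lox from 0.07 to 0.77. In at least 8 of 9 the higher genes were these and Thbs1 and Tnc (3.65% of all genes) and the lower ones these and Acta2 and Cnn1 (4.29% of all genes). Averaged over genotypes in the group comparison, LPS gave 0 of 35 calls (edgeR, 0.0213% of all genes; DESeq2, 0 of 35 and 1.26%) and 1 gene, Acta2, at an unadjusted p under 0.05 (6.15% of all genes). Acta2 had -1.05 ± 0.37 (edgeR adjusted p = 0.621) and Dcn 0.46 ± 0.23 in that average. With consecutive library numbers as a block, by which the APP libraries were paired while 1 of the 4 WT cases missed the limit for pairing, the average called 5 of the 35, Tnc, Dcn, Lox, Acta2 and Tagln (edgeR, 1.5% of all genes).

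The genotype comparison asked whether APP cultures differed from WT ones. With vehicle, 0 of 35 genes were called (edgeR, 0.0% of all genes; DESeq2, 0 of 35 and 0.453% of all genes), and 0 had an unadjusted p under 0.05, against 2.85% of all genes. Of the 35 changes 29 were above 0, with a median of 0.29, against 51.3% above 0 and a median of 0.01 over all genes. Leaving out 1 library gave 20 to 32 above 0. The median was 0.11 without APP vehicle 1, 0.13 without WT vehicle 3, 0.14 without APP vehicle 5, 0.51 without APP vehicle 3, 0.49 without APP vehicle 4 and 0.73 without WT vehicle 2. All 5 fibrillar collagens and all 3 type VI chains were above 0, with medians of 0.68 and 2.17. The type VI median is the value of Col6a2 (2.17 ± 1.84), which had 3 counts or fewer in 2 of 4 WT vehicle libraries. Col3a1 had 0.81 ± 0.43, Col5a1 0.66 ± 0.46 and Col6a3 3.21 ± 2.42, each with an edgeR adjusted p of 1. The value of Col6a3, at 0 in 3 of 4 WT vehicle libraries, depends on the prior count and is no bound: it was 0.83 without APP vehicle 5 and 9.76 without WT vehicle 2. Col5a1 had 0.37 without APP vehicle 1. Without libraries 57 to 60 Col3a1 had 0.51, Col5a1 0.40 and Col6a3 0.42, and the median of the 35 was 0.16, with 22 above 0. Of the other fibroblast genes 24 of 29 were above 0, with a median of 0.24, 0 called (edgeR) and 3 at an unadjusted p under 0.05. Of the astrocyte markers 13 of 14 were above 0, with a median of 0.94, 0 called (edgeR) and 1 at an unadjusted p under 0.05. The part of such cells in the difference between genotypes was not tested.

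After LPS, APP and WT differed in 0 of 35 genes at an adjusted p under 0.05 (edgeR, 0.0% of all genes; DESeq2, 0 of 35 and 0.489%). At an unadjusted p under 0.05 there was 1 gene, Postn, against 3.42% of all genes. Postn had a log2 difference of 1.92 ± 0.62 (unadjusted p = 0.00569, edgeR adjusted p = 1). The 5 WT LPS values were 4.59 to 10.7 CPM and the 5 APP LPS values 6.73 to 58.7 CPM. Col1a2 had 0.96 ± 0.74, which was -0.03 ± 0.56 without libraries 57 to 60 and -0.30 ± 0.65 without APP LPS 5 alone. Over the 35 genes the median was 0.06, with 21 above 0, and over all genes 49.6% were above 0. Without APP LPS 5 the median of the 35 was -0.30 with 9 above 0, and without WT LPS 3 it was 0.24 with 25 above 0. Neither genotype comparison had a gene among the 35 whose ranges did not overlap, against 0.475% (higher in APP) and 0.368% (lower) of all genes with vehicle and 0.163% and 0.333% after LPS. The genotype by LPS interaction gave 0 calls among the 35 (edgeR, 0.0% of all genes; DESeq2, 0 and 0.701%) and 0 at an unadjusted p under 0.05 (2.73%). Averaged over treatments the genotype difference gave 0 calls (edgeR, 0.0%; DESeq2, 0 and 0.758%), with Postn (1.37 ± 0.45) and Col3a1 (0.64 ± 0.29) at an unadjusted p under 0.05, against 3.44% of all genes. That average takes vehicle and LPS libraries as independent, although libraries with consecutive numbers were alike. Its SE and p-values may therefore be too small.

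Genes around the 35 were tested too. They were 25 collagen processing enzymes and chaperones, 28 genes of transforming growth factor beta signalling and 4 PDGF ligands. There were also 21 integrins and other matrix receptors and 9 regulators of contractile genes. In the 4 comparisons of treatment within genotype and of genotype within treatment, 0 of them were called (edgeR). In each of these comparisons 0.0% of all genes were called, so 0 was the outcome for any list. At an unadjusted p under 0.05 a list held 0 to 2 genes in any of these comparisons, against 2.85% to 4.81% of all genes. Serpinh1, the collagen chaperone, stood at 583 ± 365 CPM (SD, n = 4) in WT vehicle cultures and, with n = 5 each, at 409 ± 255 CPM after LPS in WT, at 550.1 ± 413 CPM in APP with vehicle and at 580.2 ± 428 CPM in APP after LPS. In the same order the integrin chain gene Itgb1 stood at 1936 ± 301, 1951 ± 316, 1925 ± 461 and 1790.4 ± 419 CPM. For both genes the SD of every group exceeded the differences between group means. Over the 15 libraries outside 57 to 60, some of these genes had a rho above 0.5 with the 34-gene sum. They were 12 of the 25 processing genes, 11 of the 28 signalling genes and 9 of the 21 receptors. Among all tested genes other than the 35, the share was 10.2%.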

How the data were processed

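The labels' protocols name QuantSeq 3′ FWD libraries with molecular identifiers and ERCC spike-ins from RNA of integrity above 8.5, read as 100-base single ends. Per the submitters' processing notes, FastQC, Trimmomatic, kallisto and DESeq2 were used. The deposited values are kallisto's estimated counts per gene symbol, whole numbers for 16941 genes, each with a total of at least 10. The build, the tool versions and any collapsing of identifiers were not given in the sources used here. Spike-ins made up 0 of the entries. The tables were rounded, which changed no value. The CPM values were computed here on TMM-corrected totals.

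Tests were edgeR 4.0.16 quasi-likelihood F tests (limma 3.58.1, R 4.3.3) in 1 fit of 19 libraries and 4 group coefficients. After filterByExpr 14113 genes stayed, p-values were adjusted by Benjamini-Hochberg over them, and 0.05 was the threshold. The script was tested on simulated data whose spread between libraries (dispersion) was below the 1.05 of the real fit. That test therefore does not show how many changes the fit would find here. DESeq2 1.42.0, other scaling, no filter, blocks and left-out libraries were alternatives. Groups came from the sample titles. For WT LPS replicate 1 the label says library 5 and the file 6. Libraries within groups were distinct (smallest chi-square per degree of freedom 85.9 over 36 pairings).

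APP libraries of the same replicate number had deviations from group means that correlated over the tested genes in all 5 pairs (r 0.130 to 0.352, limit 0.1), so these numbers pair the samples, as a hint from the data and not from the labels. WT replicate numbers did not pair (r -0.09 to 0.07).

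The 35 genes and all lists were chosen with earlier results of these data known. Genes given library by library are the 5 of highest mean, those called, the 3 of smallest p in each of 4 comparisons and the highest of each role. Coordinates are from GENCODE M21 (GRCm38), promoters from RefSeq (GRCm38.p6). Correlations carry no p. Some results on genes outside the 35 are not reported here.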

Additional observations from a re-analysis of the deposited data

Results flagged for a closer look

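Single libraries stood apart from the rest of their group, by Dixon's gap test at the 95% level, in 12 of 128 groups of 4 or 5 libraries over 32 quantities. Chance gives about 1 in 20. Rgs5, the pericyte regulator, was such a case in WT LPS 3 (116 CPM, next library 24.2), APP vehicle 1 (110.1 CPM, next 31.5) and APP LPS 1 (131 CPM, next 19.4). APP vehicle 1 and APP LPS 1 are libraries 3 and 4. In the same libraries Thy1 in APP vehicle 1 (37.9 CPM, next 13.2) and Cnn1 in APP LPS 1 (13.9 CPM, next 2.08) were high, and Pdgfrb was high in WT LPS 3 (56.3 CPM, next 20.2). Libraries 58 and 60 were high for Lox in WT LPS 5 (1171 CPM, next 555) and for Col1a2 (1025 CPM, next 301) and Fbln2 (224 CPM, next 88.3) in APP LPS 5. Col1a1 was high in WT vehicle 2 (352 CPM, next 166). Thbs1 was low in WT LPS 1 (164 CPM, next 280.2). The sum of all 35 genes was high in APP LPS 4 (85395 CPM, next 49599.9), where Lrrc17 was at 77878 CPM.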

How the results depend on the processing

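Of 690 alternative values, 7 moved past the threshold and 2 values of a named gene reversed, while 681 kept their call or, where they had no test, moved by less than the spread between libraries. That spread is wide, and medians over the 35 did change sign when 1 of the 19 libraries was left out: in 3 cases for LPS in WT (-0.35 to 0.20), 4 for APP against WT after LPS (-0.30 to 0.24), 6 for the interaction (-0.60 to 0.10) and 1 for the averaged genotype difference (-0.0012 to 0.40). Leaving out any 1 library gave 0 called genes of the 35 in each comparison (edgeR). With no library left out, 0.0% of all genes were called, or 0.0213% for LPS averaged over genotypes. A count of 0 was thus the likely outcome for any list. With 1 library left out, the correlation of the 35-gene sum with C1q ran from -0.29 to 0.19. Calls appeared with a replicate block. With replicate numbers within genotype the LPS effect averaged over genotypes called 1 of the 35 (Acta2) and 39 genes in all (0.276%), against 3 without a block. With consecutive library numbers it called 5 (Tnc, Dcn, Lox, Acta2 and Tagln) and 211 genes (1.5%), and without libraries 41 and 42, chosen after seeing the data, the same 5 and 243 genes (1.68%). In that block Tagln changed by -0.57 ± 0.09 (edgeR adjusted p = 0.00126), Dcn by 0.43 ± 0.09 (0.0125), Lox by 0.41 ± 0.09 (0.0178), Tnc by 0.49 ± 0.11 (0.0283) and Acta2 by -0.76 ± 0.19 (0.0473). For LPS in WT the block of consecutive numbers called 0 of the 35 and 21 genes (0.149%). Without 41 and 42 it called 1, Acta2 (-1.11 ± 0.23, edgeR adjusted p = 0.0385), and 36 genes (0.249%). WT consecutive numbers correlated at r 0.0959 to 0.292, and 41 with 42 missed the limit of 0.1. For LPS in APP it called 1, Tagln (-0.56), and 83 genes (0.588%). The interaction called 0 of the 35 with either block, and 0 at an unadjusted p under 0.05. Of all genes it called 0.0% with consecutive numbers and 0.00709% with replicate numbers. Genotype differences could not be estimated with a block, because pairs lie within a genotype. For Col1a2, APP against WT after LPS reversed to -0.032 without libraries 57 to 60, and leaving out 1 library gave -0.30 (APP LPS 5) to 1.23 (WT LPS 5). The cause of these shifts was not tested. Without 57 to 60, the C1q relation is the one reported. At these depths a gene at 0 could still hold up to 3 counts (0.0962 to 0.249 CPM).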
